A study of Mus musculus with 2 samples.

Results

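Members of the CD28 and B7 families and of the CD226 family were examined in endogenous CD8+ T (en-T) cells, which are those of the host and not the transferred ones. The group was set by gene name, with earlier results of these data known, and holds 10 of the 19505 genes measured on the array. They are the receptors Icos, Cd28, Cd226, Cd96 and Crtam and the ligands Cd80, Cd86, Icosl, Cd274 and Pdcd1lg2. Each had a single probe set, and all 10 were above background on both arrays. Female C57BL/6 mice aged 6 to 8 weeks carried B16F10 melanoma from 200000 cells given on day 0. Every mouse received 300 mg/kg cyclophosphamide on day 3, 2000000 Pmel-1 cells on day 5 and 10000 IU of human IL-2 daily for 3 days. Pmel-1 cells are T cells with a transgenic receptor for a melanoma antigen, taken from Thy1.1 mice. The regimen on its own was the control group, CTXpre, and its mice were given no antibody against CD4. The CTXpre/CD4post group also received 200 µg of the anti-CD4 antibody GK1.5 on days 10, 17 and 24. On day 25, CD8-positive cells without Thy1.1 were sorted from inguinal lymph nodes and spleen, pooled from 5 mice, and hybridised to 1 array per group.

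T cells need a costimulatory signal beside that of the antigen receptor to expand and to make cytokines. CD28 supplies it on resting T cells when it binds CD80 or CD86 on antigen-presenting cells, and ICOS, which T cells induce on activation, binds its own ligand, ICOSL. CD274 (PD-L1) and PDCD1LG2 (PD-L2) are B7 relatives that engage the inhibitory receptor PD-1. CD226 is an activating receptor for CD155 and nectin-2, and TIGIT and CD96 compete with it for CD155. CRTAM, which appears on activated CD8+ T cells, binds the adhesion molecule CADM1.

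Icos and the gene of its ligand differed in opposite directions. Icos was 2.25-fold higher and Icosl 1.55-fold lower in CTXpre/CD4post than in CTXpre, so that their differences, which are the CTXpre/CD4post minus the CTXpre log2 level, lay 1.80 apart. The other 8 members stayed within 1.5-fold. Since each group has a single array, nothing could be tested and each difference describes these arrays alone. Of the 10 members, 1 was at least 2-fold higher, beside 0.552% of the 12861 genes above background, and 0 were 2-fold lower or more, beside 0.537% of those genes. Past 1.5-fold, 1 was higher, beside 3.08% of all genes above background, and 1 lower, beside 3.37%. A difference above 0 was found for 7 of 10 members, beside 51.6% of all genes above background. The median difference was 0.40 over the 5 receptors, 0.00090 over the 5 ligands and 0.07 over all 10, beside 0.0098 over all genes above background. In RNA pooled from a sorted population, fewer cells of a type and less RNA per cell cannot be told apart.

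**Figure D1:**
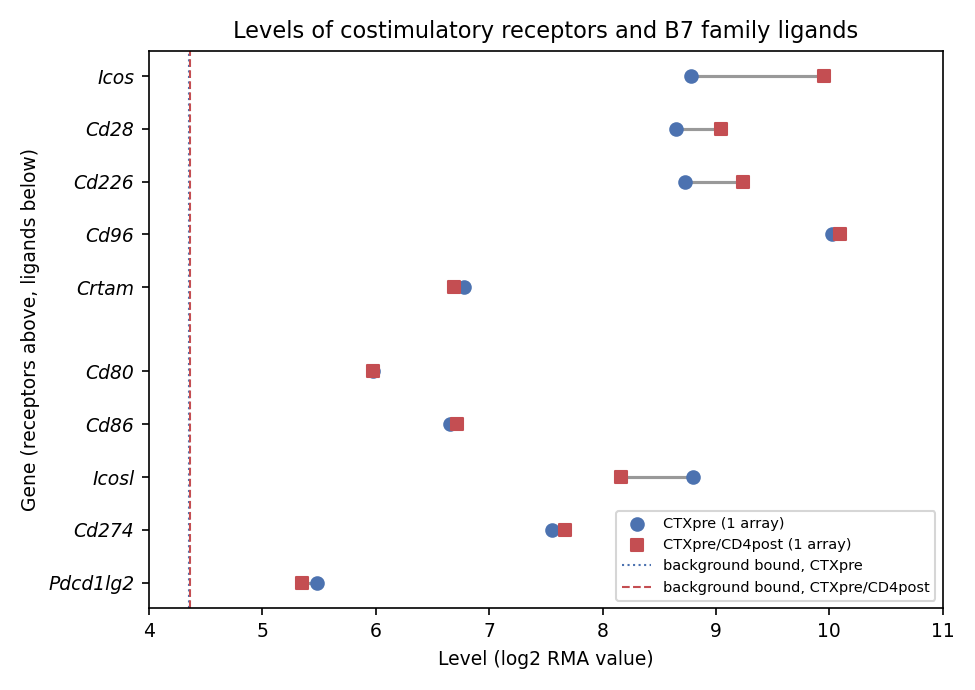
Levels (log2 RMA values, x axis) of the 5 receptors and 5 ligands, with a circle for the CTXpre array, a square for the CTXpre/CD4post array and vertical lines at each array's background bound (4.35 and 4.36). All 20 levels lie to the right of the bounds, the widest gaps are those of Icos and Icosl in opposite directions, and levels of different genes come from different probes and are not comparable.

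Across the arrays as a whole, the median level was 5.15 on both. A level was taken as background up to the 95th percentile of 1450 probe sets for smell, pheromone and taste receptors, which are typical of sensory cells. The differences of those probe sets had an SD of 0.31, and their central 95% ran from -0.58 to 0.66. The labelled cell type was borne out by Cd8a (11.47 on the CTXpre array against 11.72 on the other) and Cd8b1 (11.70 and 11.80), and all 8 CD8 T cell markers were within 1.5-fold. Markers of other cells were nevertheless above background, and the MHC class II list had a median difference of -0.80.

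Icos, the inducible receptor of the CD28 family, measured 8.78 on the CTXpre array against 9.95 on the CTXpre/CD4post array. This difference of 1.17 was the widest of the 10 members. Of 610 genes whose mean level lay within 0.5 of that of Icos, 2 differed by at least as much, Icos included. The study itself named Icos among genes higher on these same arrays, so its direction is not independent evidence. ICOS is also abundant on regulatory and helper CD4+ T cells. In that marker list, Cd4 was 7.55 on the CTXpre array against 5.98 on the other and Gpr83 was 1.91-fold lower, while Cd40lg, not above background in CTXpre, was at least 2.78-fold higher. Of the 6 genes measured in the list, 4 had a difference above 0 and 2 below 0, and Foxp3 was not among them. Their summed linear level was 442 on the CTXpre array against 364 on the other, of which Cd4 alone held 187 and 63. Such a sum adds values of different probes and is not an amount of a cell type. Il2ra was above background on neither array. The part of CD4+ T cells in the Icos difference was not tested.

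Cd28, the receptor that resting T cells use, measured 8.65 on the CTXpre array against 9.05 on the CTXpre/CD4post array, a 1.32-fold difference in the same direction as Icos. Of 1009 genes within 0.5 of its mean level, 71 differed by at least as much. Icos and Cd28 lie on chromosome 1 on either side of Ctla4, whose product binds CD80 and CD86 and inhibits T cells. Ctla4 was 6.54 on the CTXpre array against 7.05 on the other. The 3 adjacent receptor genes were thus all higher on the CTXpre/CD4post array, Cd28 by 0.40, Ctla4 by 0.51 and Icos by 1.17. The nearest coding genes outside them, Raph1 and Pard3b, were not above background on either array and differed by 0.41 and -0.08.

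Cd226, Cd96 and Crtam, the receptors for nectins and their relatives, all lay within 1.5-fold. The level of Cd226 was 8.73 on the CTXpre array against 9.24 on the other, 1.43-fold higher, and 36 of 877 genes within 0.5 of its mean level differed by at least as much. Cd96, which binds CD155 in competition with CD226, was at 10.03 against 10.10. Of 331 genes near it in level, 227 differed by at least as much as its 0.07. Crtam measured 6.78 on the CTXpre array against 6.69 on the CTXpre/CD4post array. The inhibitory receptor Tigit, which also binds CD155, was 5.24 on the CTXpre array against 6.62 on the other, a 2.59-fold difference. Within the set of receptors that share CD155, the activating Cd226 and the inhibitory Tigit were therefore both higher on the CTXpre/CD4post array, and Tigit by 0.86 more on the log2 scale. Tigit, like Icos, was named by the study on these arrays. Separately, the study reported significantly higher TIGIT and PD-1 protein on en-T cells under CTXpre/CD4post, measured by flow cytometry.

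**Figure D2:**
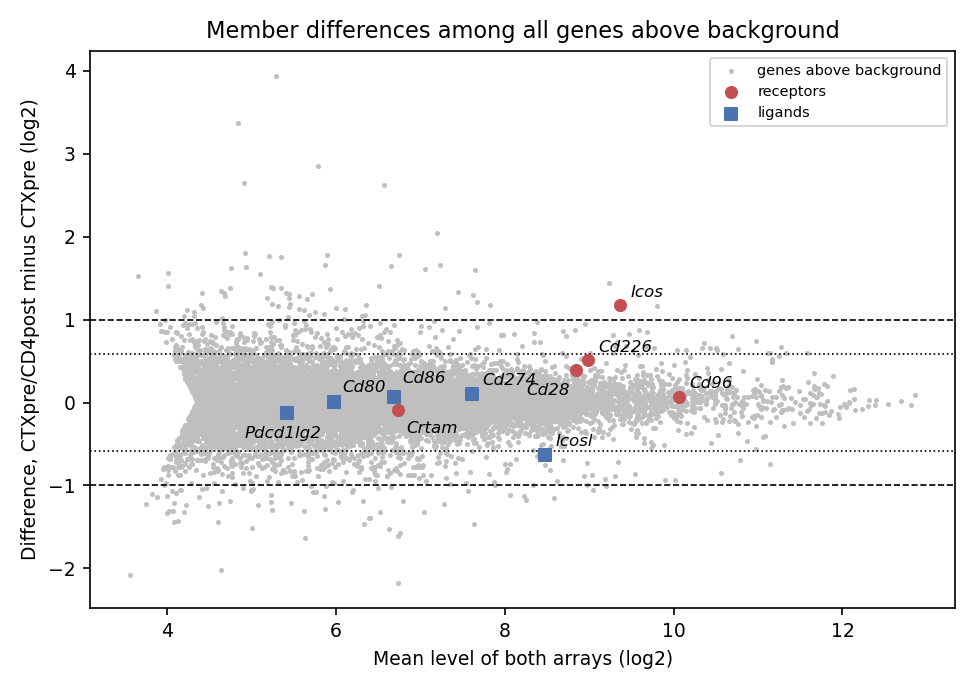
Difference between the arrays (CTXpre/CD4post minus CTXpre, log2, y axis) against the mean level of both (log2, x axis) for 12861 genes above background in grey, with receptors as circles and ligands as squares, dashed lines at 2-fold and dotted lines at 1.5-fold. Icos is the only member beyond a dashed line and Icosl lies just past the lower dotted line, while the other 8 members lie between the dotted lines.

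Icosl, which encodes the ligand of ICOS and is carried by B cells, dendritic cells and macrophages, measured 8.80 on the CTXpre array against 8.17 on the CTXpre/CD4post array. Of 1368 genes within 0.5 of its mean level, 29 differed by at least as much as its -0.63. The difference was just past 1.5-fold, and with 32 added to the linear values, which shrinks differences of dim probe sets, it was -0.58 and no longer past it. The ligands of CD28 did not share this difference. Cd80 was at 5.98 on both arrays, and Cd86 measured 6.65 on the CTXpre array against 6.72 on the CTXpre/CD4post array.

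The ligands of PD-1 also stayed close between the arrays. Cd274 measured 7.56 on the CTXpre array against 7.67 on the CTXpre/CD4post array, and Pdcd1lg2 5.48 against 5.35. Their genes are neighbours on chromosome 19. Pdcd1, which encodes PD-1, was 6.15 on the CTXpre array against 7.04 on the other, so the receptor was 1.85-fold higher while the differences of its ligands were 0.11 and -0.13.

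Since Icosl was the only ligand past 1.5-fold, its promoter is shown with those of the neighbours Cd274 and Pdcd1lg2, which were not. Promoters from RefSeq (GRCm38.p6), from 250 bases before to 50 after a gene's start, matched 5 of 10 members, namely Icosl, Cd80, Cd274, Pdcd1lg2 and Cd96. The region is chr10:78069118-78069417 on the plus strand for Icosl, chr19:29367188-29367487 on the plus strand for Cd274 and chr19:29410669-29410968 on the plus strand for Pdcd1lg2. Capitals mark matches, on either strand and without overlap, to GGGCGG (the GC box), to CCAAT (the CCAAT box), to TATAAA (the TATA box) or to CCGGAAG (an ETS factor core).
Icosl: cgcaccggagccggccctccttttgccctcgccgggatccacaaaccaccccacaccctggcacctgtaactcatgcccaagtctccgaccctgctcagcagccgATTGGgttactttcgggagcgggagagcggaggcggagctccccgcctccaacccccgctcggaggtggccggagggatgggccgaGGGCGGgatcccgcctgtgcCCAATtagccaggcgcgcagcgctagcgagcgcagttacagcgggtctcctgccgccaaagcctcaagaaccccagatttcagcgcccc
Cd274: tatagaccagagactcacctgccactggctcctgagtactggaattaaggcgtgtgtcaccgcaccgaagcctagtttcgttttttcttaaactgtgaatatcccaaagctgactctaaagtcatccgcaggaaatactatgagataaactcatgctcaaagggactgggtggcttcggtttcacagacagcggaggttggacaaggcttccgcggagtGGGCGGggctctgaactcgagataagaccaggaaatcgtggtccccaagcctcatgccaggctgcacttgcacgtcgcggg
Pdcd1lg2: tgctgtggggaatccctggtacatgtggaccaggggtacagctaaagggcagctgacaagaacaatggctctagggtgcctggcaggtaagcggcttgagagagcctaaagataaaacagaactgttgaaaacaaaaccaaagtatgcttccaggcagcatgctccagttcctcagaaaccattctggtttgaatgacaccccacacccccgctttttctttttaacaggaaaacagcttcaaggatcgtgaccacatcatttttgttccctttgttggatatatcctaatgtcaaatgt

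The Icosl promoter was the richest of these 3 in G and C, at 68.0% with 26 CpG dinucleotides, beside medians of 52.7% and 7 over 32851 promoters. It held 1 GC box and 2 CCAAT boxes, of which 1 was on each strand. The Cd274 promoter held 1 GC box, 15 CpG dinucleotides and 52.7% G and C, and that of Pdcd1lg2 held none of the 4 motifs, 3 CpG dinucleotides and 46.0%. A GC box was found in 35.7% of all promoters, a CCAAT box in 37.4%, TATAAA in 13.6% and an ETS core in 8.86%. These matches describe the letters only.

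Markers of the cells that usually carry these ligands were above background on at least 1 array, and most were lower in CTXpre/CD4post. Each of the 6 MHC class II genes with a probe set was past 1.5-fold lower, with a difference between -0.93 and -0.69. Their summed linear level was 8250 on the CTXpre array and 4809 on the other. As above, this sum and those that follow add values of different probes and are not amounts of a cell type. The 10 dendritic-cell markers were all below 0 and 6 were past 1.5-fold, with Fscn1 at -1.40 as the widest, and their summed level was 1151 and 678. Of 9 B-cell markers, 8 were below 0 and 2 past 1.5-fold lower, with Fcrla at -0.95 as the widest, and sums of 1292 and 1042. Of 9 myeloid markers, 7 were below 0 and 4 past 1.5-fold lower, with Mpeg1 at -1.12 as the widest, and sums of 1026 and 633. None of these 4 lists had a marker below background on both arrays. Icosl was lower on the same array as these lists, whereas Cd80, Cd86, Cd274 and Pdcd1lg2 stayed between -0.13 and 0.11. The part of such cells in the ligand values was not tested. The natural killer list, whose cells carry CD226, CD96 and CRTAM, had sums of 408 on the CTXpre array and 249 on the other over 5 genes, with 2 genes above 0 and 3 past 1.5-fold lower. The widest difference was that of Tyrobp, at -1.03, and the defining receptor Ncr1 was above background on neither array. Tyrobp (129 and 63.2) and Fcer1g (192 and 117) made up most of the natural killer sums. The receptor gene Klrb1c, above background in CTXpre only, was at least 1.92-fold lower (39.3 and 19.9), whereas Klre1 measured 37.4 and 38.3. The part of natural killer cells in the receptor values was not tested. Of 4 plasma-cell markers, all had a difference below 0, Jchain the widest at -2.17, with sums of 532 and 309.

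**Figure D3:**
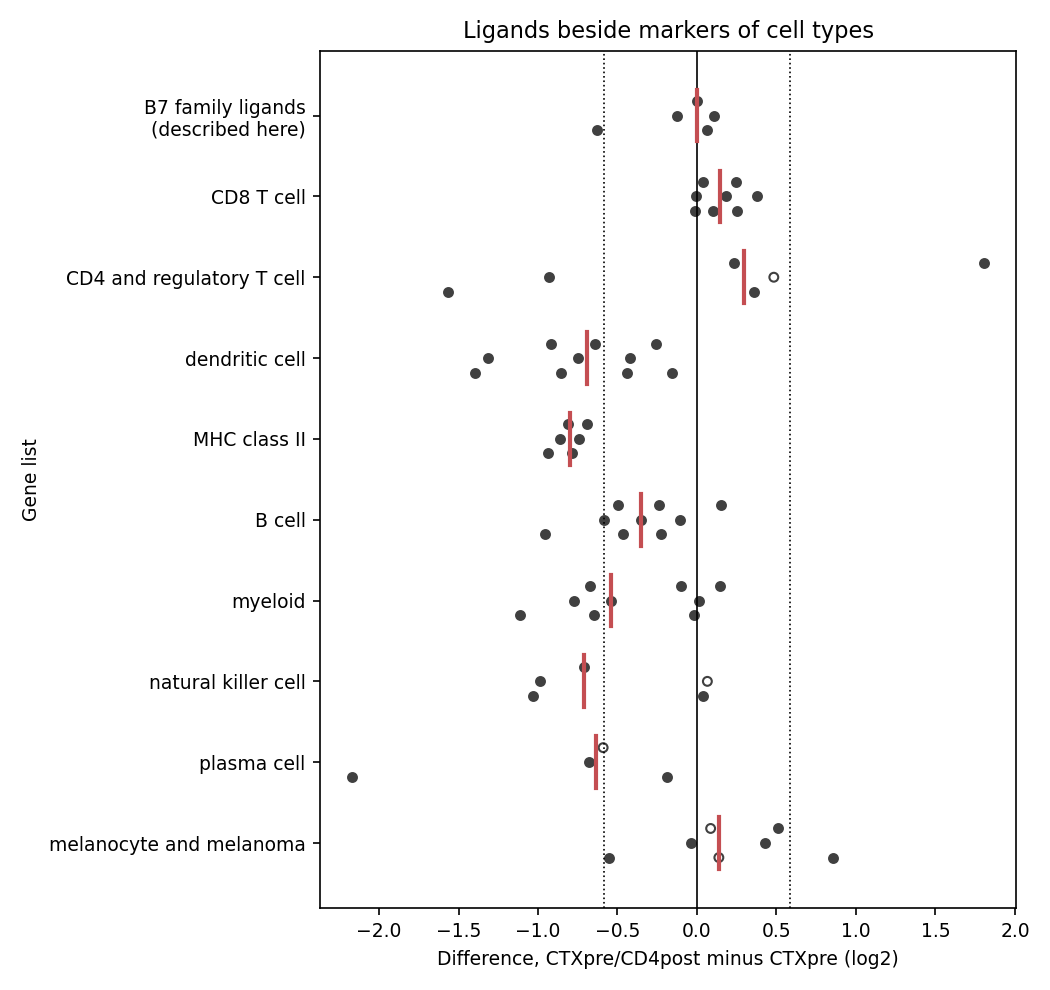
Differences (CTXpre/CD4post minus CTXpre, log2, x axis) of the 5 ligands and of 9 marker lists (rows), of which MHC class II is a gene family. Filled points are genes above background on at least 1 array and open points the rest. Red bars mark each list's median and dotted lines mark 1.5-fold. All MHC class II and dendritic-cell markers lie left of 0, and of the ligands only Icosl lies past the left dotted line.

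Other genes of these pathways went both ways. Of 66 listed genes, 59 were measured and 50 were above background on at least 1 array. Of these 50, 4 were past 1.5-fold higher, beside 3.08% of all genes above background, and 4 past 1.5-fold lower, beside 3.37%. The same shares stand beside the counts of each list below. The median difference of the 50 was 0.00050. The lists were written with results of these data known.

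Other coreceptors on T cells went both ways. Tigit and Pdcd1 were past 1.5-fold higher, 1 of the 6 measured was past 1.5-fold lower and 3 lay within 1.5-fold, Ctla4 among them. Their median difference was 0.35. Btla, an inhibitory receptor that B cells and dendritic cells also carry, was the lower gene, at 7.32 on the CTXpre array against 6.55 on the other. The B-cell and dendritic-cell lists, with median differences of -0.35 and -0.69, were lower on the same array, and their part in the Btla value was not tested.

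Ligands of the CD226 family lay lower or close. Of 6 nectins and relatives, 4 were above background, of which 0 were past 1.5-fold higher and 1 was past 1.5-fold lower. The lower gene was Cadm1, the ligand of CRTAM, at 7.33 on the CTXpre array against 6.46 on the other. CADM1 is also carried by cross-presenting dendritic cells, whose markers Clec9a and Xcr1 had differences of -0.75 and -0.42 on the same arrays. The part of such cells in the Cadm1 value was not tested. Pvr, which encodes CD155, had levels of 6.20 and 6.28, Nectin1 differed by -0.27 and Nectin4 by -0.31, and Nectin2 and Nectin3 were above background on neither array. The list of other B7 family and butyrophilin-like genes also held Tnfrsf14, which belongs to neither family. Of its 4 genes above background, 0 were past 1.5-fold. They were Cd276 (-0.23), the BTLA partner Tnfrsf14 (-0.11), Btn1a1 (-0.07) and Vsir, which encodes the inhibitory VISTA and had a level of 9.92 on both arrays.

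Genes that carry the signal inside the cell stayed near 0. Of 21 signalling genes, all above background on both arrays, 20 were within 1.5-fold, and the median difference was 0.02. The kinase Akt1 differed by 0.27, the adaptor Grb2 by 0.25 and Bcl10, which links antigen-receptor signals to NF-κB, by 0.29. The exception was Pik3ap1, a PI3K adaptor best known in B cells and myeloid cells, at 7.56 on the CTXpre array against 6.83 on the other. The B-cell and myeloid lists had median differences of -0.35 and -0.54, and their part in it was not tested either. All 8 genes that control the RNA or protein of these receptors and ligands were within 1.5-fold. Among them were Rc3h1 (-0.12) and Zc3h12a (-0.17), whose products destabilise Icos mRNA, Lrba (0.17), which protects CTLA-4 from degradation, and Cmtm4 (-0.31), a partner of PD-L1.

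Genes reported to follow CD28 or ICOS signals were split. Among 7 above background, 2 were past 1.5-fold higher and 1 past 1.5-fold lower, and the median difference was 0.04. Maf, a transcription factor induced downstream of ICOS in helper T cells, measured 5.07 on the CTXpre array against 6.18 on the CTXpre/CD4post array, a 2.16-fold difference. Bcl2l1, which encodes the survival protein BCL-XL, was 1.56-fold higher (6.46 and 7.11), and Tnfrsf4, which encodes the costimulatory receptor OX40, was 1.49-fold higher (6.44 and 7.02). Bcl6, a transcription factor of follicular helper T cells and of germinal-center B cells, was lower, at 6.78 on the CTXpre array against 6.07 on the other. The cytokine genes Il2, Il21 and Il10 and the IL-2 receptor gene Il2ra were above background on neither array.

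**Figure D4:**
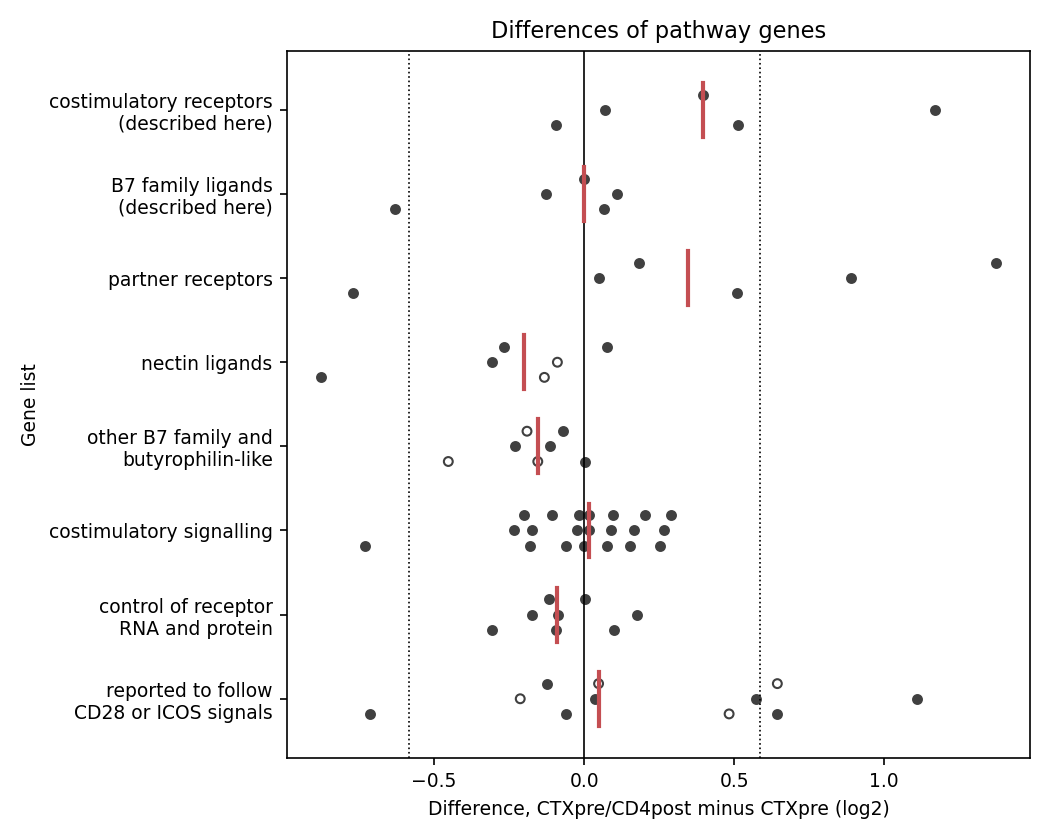
Differences (CTXpre/CD4post minus CTXpre, log2, x axis) of the receptors, the ligands and 6 lists of pathway genes (rows), with filled points for genes above background on at least 1 array, open points for the rest, red bars at each list's median over its measured genes and dotted lines at 1.5-fold. The receptor medians (0.40 for the receptors described here and 0.35 for the other coreceptors) lie right of 0, while 20 of 21 signalling genes lie between the dotted lines.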

How the data were processed

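Total RNA of Thy1.1-negative CD8+ T cells pooled from 5 mice per group was hybridised to Clariom S mouse arrays, 1 per group. The deposited values are log2 expression values, which the authors made with Affymetrix Power Tools by the RMA method; versions and genome build are not given in the sources used. RMA quantile-normalizes the arrays, so a global shift in RNA cannot be seen. Of 22206 probe sets, 19572 carried 1 symbol, 0 several, and 2634 are unnamed here; 55 of 19505 genes had several probe sets, of which that with the highest mean was used. No column was left unused (0). The number of arrays, 2, limits the precision. Genes were called by size (2-fold, as in the study's text, and 1.5-fold) among genes that passed the bound on 1 array or both; where 1 array was below the bound, the higher of bound and level was used ("at least"). Genes were compared with others within 0.5 of their mean level. The size rule was run on simulated data with normal noise of equal spread at all levels, which checks the code and not the error of these arrays. Members and lists were chosen with earlier results of these data known. By rule, named genes were all 10 members, up to 4 genes per pathway list with the largest difference, and coding neighbours. Cd8a, Cd8b1 and the widest marker of each list were also named by rule. Named after their values were seen were Cd4, Gpr83, Il2ra, Ncr1, Klrb1c, Klre1, Fcer1g, Clec9a, Xcr1, Pmel, Mlana, Tyr and Tyrp1. Pathway genes below background were likewise named after their values were seen. Some listed genes were not analysed here. Alternatives were centring, repeated quantile normalization, a lowess trend removed (fraction 0.3), 32 added, the 99th percentile as bound, levels below the bound set at it, the mean of all probe sets, 3-fold and no filter. Python 3.11.15, pandas 2.3.3 and statsmodels 0.14.6 were used.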

Additional observations from a re-analysis of the deposited data

How the results depend on the processing

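Of 116 values recomputed under the alternatives, 114 stayed within 0.31, the SD of the chemosensory probe sets, or, for counts, within 1.5 times. In direction, 0 turned past 1.5-fold. Each member had a single probe set and was above background on both arrays. Setting levels at the bound and averaging probe sets could therefore not change a member's difference, and the stricter percentile bound changed none. The tolerance of 0.31 was also wider than the differences of Cd96, Crtam and every ligand except Icosl. The count of 114 is therefore no measure of robustness. Members past the size threshold numbered 1 at 2-fold and 0 at 3-fold, and members past 1.5-fold went from 2 to 1 with 32 added to the linear values, where Icosl was at -0.58. The difference of Icos ranged from 1.12 to 1.17, of Cd226 from 0.48 to 0.51, of Cd28 from 0.37 to 0.40 and of Icosl from -0.65 to -0.58. The median of the receptors ranged from 0.37 to 0.40 and that of the ligands from -0.01 to 0.0019, which changes sign. Pathway genes past 1.5-fold numbered 6 to 9. No paired analysis was possible because each group has 1 array. None of these settings replaces replicate arrays.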

Other observations

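Markers of melanocytes and melanoma were near background on both arrays. Of 7 genes, 2 were above it on both arrays, Pmel at 4.75 on the CTXpre array against 5.27 on the other and Mlana at 4.61 against 4.58, while Tyr and Tyrp1 were above it on neither. Dct, above background in CTXpre/CD4post only, was at least 1.04-fold higher.

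The coding genes next to Icosl did not share its difference, since Dnmt3l differed by -0.02 and Gatd3a by 0.06. Next to Cd274 and Pdcd1lg2, Plgrkt differed by -0.06 and Ric1 by 0.42. Next to Cd80, Timmdc1 differed by 0.03, and next to Crtam, Ubash3b, an inhibitor of antigen-receptor signals in T cells, by -0.04.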
